A study of Mus musculus with 2 samples.

Results

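The 10 genes described here encode the receptors Notch1, Notch2 and Notch3, the ligands Jag1, Dll1 and Dll3, and the transcriptional repressors Hes1, Hes5, Hes6 and Hey1 of the Notch pathway. They were taken by name: every probe set whose single gene symbol was 1 of the 10 was used, which gave 17 probe sets of 45101 on the array and 10 genes of 18194 with a probe set of 1 symbol. Expression was measured in 2 single cells, each on its own array. CD1 mice, an albino outbred stock, gave both: a retina dissociated on the day of birth (postnatal day 0, P0) and one dissociated at E12.5, that is, on embryonic day 12.5. No genotype or treatment other than papain dissociation is named for either cell. Both cells had scored for no class of retinal cell and were placed by the submitters, from the genes they expressed, in the forming ciliary body and iris, the rim of the optic cup. Each age is a single cell without replicates, so all differences are between these 2 cells and carry no p-value.

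Notch signalling passes between touching cells. A Delta or Jagged ligand on one cell binds a Notch receptor on its neighbour, the receptor is cut by a metalloprotease and then by gamma-secretase, and the freed intracellular domain joins the DNA-binding protein Rbpj in the nucleus to switch on genes of the Hes and Hey family. Hes1 and Hes5 repress proneural genes and keep retinal progenitors undifferentiated, and the same pathway later favours Müller glia. At the rim of the optic cup, Jag1 and Notch2 are known for their part in ciliary body formation.

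Motifs of the pathway were searched in the 250 bases before the start site of the 10 genes, because the effectors are both targets of Rbpj and repressors that bind DNA themselves. RefSeq promoter windows (GRCm38.p6) were matched by symbol for 8 of the 10 genes, all but Hes1 and Hey1, and gave 10 windows. Of 4 motifs searched on both strands, 2 were forms of the Rbpj site: GTGGGAA, which 5.42% of 32851 such windows in the table hold, and GTGAGAA, which 3.83% hold. The others were the N-box CACNAG, a site that Hes repressors can bind, held by 36.7% of windows, and TATAAA, held by 12.4%. For GTGGGAA, the window of Hes5 held 2 matches, beginning 226 and 83 bases before the start site, and the others held none. No window held GTGAGAA. The N-box matched in 4 of the 10 windows, with 2 matches in Notch3 and 1 each in Notch1, Notch2 and 1 of the Hes6 windows. TATAAA matched once, in that same Hes6 window. No matches to different motifs overlapped. The Hes5 window is shown as the one with matches, with the bases that match GTGGGAA in capitals, and those of Notch3 and Jag1 as the receptor and the ligand that were called between the cells. A match is a description of letters in the window and does not show that Rbpj or a Hes protein binds there.
Hes5, chr4:154960673-154960922, plus strand: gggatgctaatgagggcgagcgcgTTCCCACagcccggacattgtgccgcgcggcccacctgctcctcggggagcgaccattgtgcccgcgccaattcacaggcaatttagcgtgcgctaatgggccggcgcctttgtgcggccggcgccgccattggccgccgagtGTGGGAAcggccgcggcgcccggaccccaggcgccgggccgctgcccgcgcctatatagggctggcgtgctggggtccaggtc
Notch3, chr17:32166891-32167140, minus strand: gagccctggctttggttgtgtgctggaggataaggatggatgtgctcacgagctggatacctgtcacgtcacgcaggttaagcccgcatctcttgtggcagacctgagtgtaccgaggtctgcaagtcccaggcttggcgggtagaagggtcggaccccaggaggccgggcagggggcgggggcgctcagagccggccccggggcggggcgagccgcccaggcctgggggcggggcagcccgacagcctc
Jag1, chr2:137116521-137116770, minus strand: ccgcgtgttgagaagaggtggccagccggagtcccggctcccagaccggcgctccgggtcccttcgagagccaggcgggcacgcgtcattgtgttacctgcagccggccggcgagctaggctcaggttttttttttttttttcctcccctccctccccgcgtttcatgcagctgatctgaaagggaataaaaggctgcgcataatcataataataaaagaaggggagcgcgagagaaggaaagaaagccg

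The values are MAS5 signals, intensities on a linear scale. A gene was counted as above background where its signal exceeded a limit of 334 in the P0 cell or 237 in the E12.5 cell, the 99th percentile of 207 probe sets for gene families that the eye is not known to use, such as olfactory receptors. A gene was represented by its brightest probe set (mean log2 signal of both cells), and was called when it was above the limit in the brighter cell and at least 4-fold apart, signals under a limit first being set to it. A fold whose dimmer side lay under the limit is a bound and is written "at least". Levels of different probe sets are not compared with each other.

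The most evident pattern among the 10 genes was a difference in which receptors and which ligand were measured. In the P0 cell all 3 receptors were above background and none of the 3 ligands was, while in the E12.5 cell Notch2 was the only receptor and Jag1 the only ligand. With the mean over probe sets, Notch1 was above background in neither cell, which left 2 receptors at P0. With either lower limit tried, from the 95th percentile or from bacterial controls, 1 of the 3 ligands, Dll1, was above it in the P0 cell. Notch2, Hes1 and Hes6 were above background in both cells (3 of 10, against 18.9% of all genes), and Dll1, Dll3, Hes5 and Hey1 in neither. In all, 5 of 10 genes were above the limit in the P0 cell, against 28.6% of all genes, and 4 of 10 in the E12.5 cell, against 30.8% of all genes. Notch3 was called higher in the P0 cell, where 9.46% of all genes were, and Jag1 and Hes1 were called lower, where 7.51% of all genes were. With 10 genes, 3 called against 17% of all genes is close to what the arrays show in general, and the shares are given as a description of the list.

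**Figure D1:**
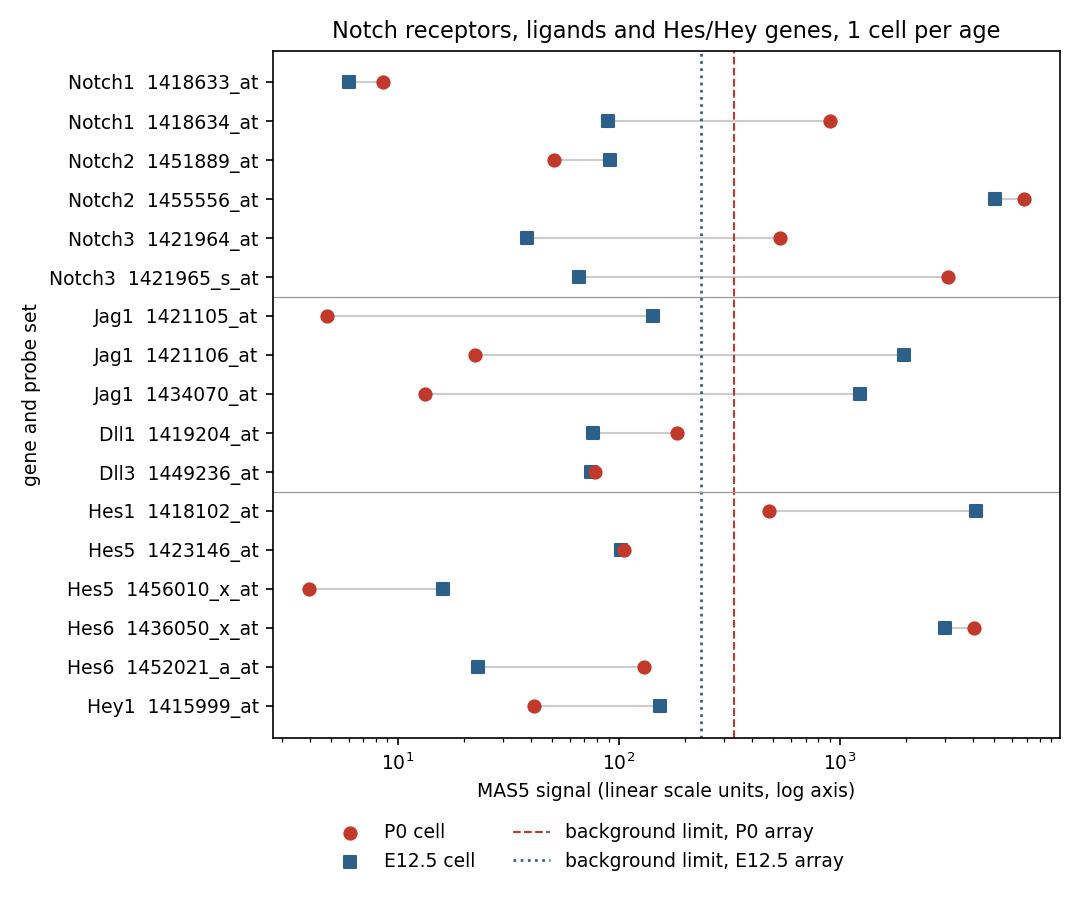
MAS5 signal (log axis) of each of the 17 probe sets in the P0 cell (circles) and the E12.5 cell (squares), with receptors at the top, ligands in the middle and Hes and Hey genes at the bottom; the vertical lines are the background limits of 334 (P0) and 237 (E12.5). Both probe sets of Notch3 cross the limit in the P0 cell only, and 2 of the 3 probe sets of Jag1 in the E12.5 cell only.

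Among the receptors, Notch3 was the one called, and it was higher in the P0 cell. Its probe set 1421965_s_at had a signal of 3089 at P0, against 66.3 at E12.5, which is at least 13.1-fold higher. A second probe set, 1421964_at, gave 537 at P0 and 38.4 at E12.5, at least 2.27-fold higher. Both probe sets were above background at P0 and below it in the E12.5 cell. The suffix of the brighter one marks probes that may also bind related transcripts, and without such probe sets Notch3 lost its 4-fold call and had a smaller bound, of 2.27-fold, than Notch1, described below.

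Notch3 is best known as the receptor of pericytes and vascular smooth muscle, so the markers of vessel cells were examined beside it. Of 13 vascular and pericyte markers, 1 was above the limit at P0 and 0 at E12.5, and their summed signals were 1516 at P0 and 793 at E12.5. The exception was Rgs5, a regulator of G protein signalling found in pericytes, with 833 at P0 and 47.9 at E12.5. A further Rgs5 probe set, 1420942_s_at, had 415 at P0 and 1.85 at E12.5 and was also above the limit at P0 only. The pericyte receptor gene Pdgfrb had 38.5 at P0 and 44.5 at E12.5. The smooth muscle actin gene Acta2 had 12.4 and the proteoglycan gene Cspg4 17.1 in the P0 cell, against 224 and 97.4 in the E12.5 cell. All 3 were thus below background in both cells. Pecam1 and Cdh5, which mark endothelium, were below background in both cells as well, Cdh5 with 193 at P0 and 65.4 at E12.5. With either lower limit, 3 of the 13 markers were above it at P0, Rgs5, Cdh5 and Kdr, and 2 at E12.5, Acta2 and Tie1.

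Notch1, the main receptor of neural progenitors, was measured in the P0 cell only. Its probe set 1418634_at had a signal of 899.9 at P0 and 89.6 at E12.5, at least 3.80-fold higher and just short of the 4-fold call. The other, 1418633_at, gave 8.62 at P0 and 6.05 at E12.5 and was below background in both. Because the E12.5 value of the first probe set lies below the limit, the size of this difference rests on where the limit is set, and Notch1 reached the call with either lower limit tried. Averaged over its probe sets it had 88.1 at P0 and 23.3 at E12.5, below background in both cells.

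Notch2, the receptor known from ciliary body formation, was the one receptor above background in both cells. Probe set 1455556_at gave 6806 at P0 and 5023 at E12.5, a log2 ratio of 0.44. For comparison, the log2 ratios of the 2 brightest probe sets of a gene, over 989 genes with at least 2 above the limit in both cells, differed with an SD of 1.19 and by a median of 0.42 without regard to sign. The Notch2 difference is smaller than that SD and about as large as the median disagreement. Probe set 1451889_at, with 51.0 at P0 and 90.9 at E12.5, was below background in both.

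Among the ligands, Jag1 was measured in the E12.5 cell and not in the P0 cell. Probe set 1421106_at had 22.4 at P0 and 1957 at E12.5, at least 5.86-fold lower in the P0 cell. Probe set 1434070_at had 13.3 at P0 and 1239.5 at E12.5, at least 3.71-fold lower. The third, 1421105_at, had 4.80 at P0 and 142 at E12.5 and was below both limits. All 3 probe sets of Jag1 thus had the lower signal in the P0 cell, and in that cell none was near the limit. With the mean over probe sets, which takes in the probe set below both limits, Jag1 lost its call at a log2 ratio of -1.07.

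The Delta-type ligands were below background in both cells. Dll1, a ligand expressed by newly born neurons, had 183 at P0 and 76.2 at E12.5. Dll3, a divergent member that acts within the cell in which it is made, had 78.3 at P0 and 74.7 at E12.5. Each has 1 probe set with a single symbol, and a transcript below the limit was not detected, which does not show that it was absent: reverse transcription from 1 cell can miss a transcript altogether. With the limit at the 95th percentile of the background families, Dll1 was above it in the P0 cell, and Dll3 still in neither.

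Among the effectors, Hes1 was lower in the P0 cell. Its only probe set, 1418102_at, had 479.7 at P0 and 4139.7 at E12.5, both above the limit, so that the 8.63-fold difference is measured on both sides and is not a bound. The log2 ratio of -3.11 is larger than the SD of 1.19 between probe sets of a gene, which holds no variation between cells. Hes1 kept its call in each of the 8 alternative settings.

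Hes6, which opposes Hes1 and promotes neuronal differentiation, was above background in both cells. Probe set 1436050_x_at had 4038 at P0 and 2989.8 at E12.5, a log2 ratio of 0.43, again below that SD and close to the median disagreement. Probe set 1452021_a_at, with 131 at P0 and 23.0 at E12.5, was below background in both. The brighter probe set carries a suffix that marks possible binding of other transcripts. With the mean over both probe sets Hes6 was still above background in both cells, at 726 at P0 and 262 at E12.5, 2.77-fold higher.

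Hes5, an effector in neural progenitors, and Hey1, an effector in vessels, brain and other tissues, were above background in neither cell. Hes5, whose promoter window is printed above with its 2 matches to the Rbpj motif, had 106 at P0 and 103 at E12.5 with probe set 1423146_at. With 1456010_x_at it had 3.97 at P0 and 16.0 at E12.5. Hey1 had 41.3 at P0 and 153 at E12.5. These values lie below the limits, and with the limit at the 95th percentile Hes5 was above it at P0 and Hey1 at E12.5.

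Of 61 other Notch pathway genes listed, 56 had a probe set of 1 symbol. Of these, 21 (37.5%) were above background at P0 and 29 (51.8%) at E12.5, against 28.6% and 30.8% of all genes. The counts depended on the limit. With the 95th percentile 34 were above it at P0 and 33 at E12.5, and with bacterial controls 34 in each. Over all genes the shares were 44.9% at P0 and 39.6% at E12.5 with the 95th percentile, and 43.5% and 40.3% with bacterial controls. In the P0 cell, 3 of the pathway genes (5.36%) were called higher and 7 (12.5%) lower, against 9.46% and 7.51% of all genes. The median log2 ratio was -0.54 over the 33 with a ratio, against -0.05 over 7128 of all genes. Scaling the arrays to the hybridisation spike-ins moved the median of all genes above background in both cells to -0.86, and then 0 pathway genes were called higher and 14 lower, beside 1105 higher and 2159 lower among all genes. Equal numbers, 3 higher and 3 lower, were called with the mean over probe sets. There Mib1, Aak1, Kdm5a, Crebbp and Rfng, each with several probe sets, lost their calls. Mib2 and Spen had no value once probe sets with _s_at, _x_at or _a_at names were left out.

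**Figure D2:**
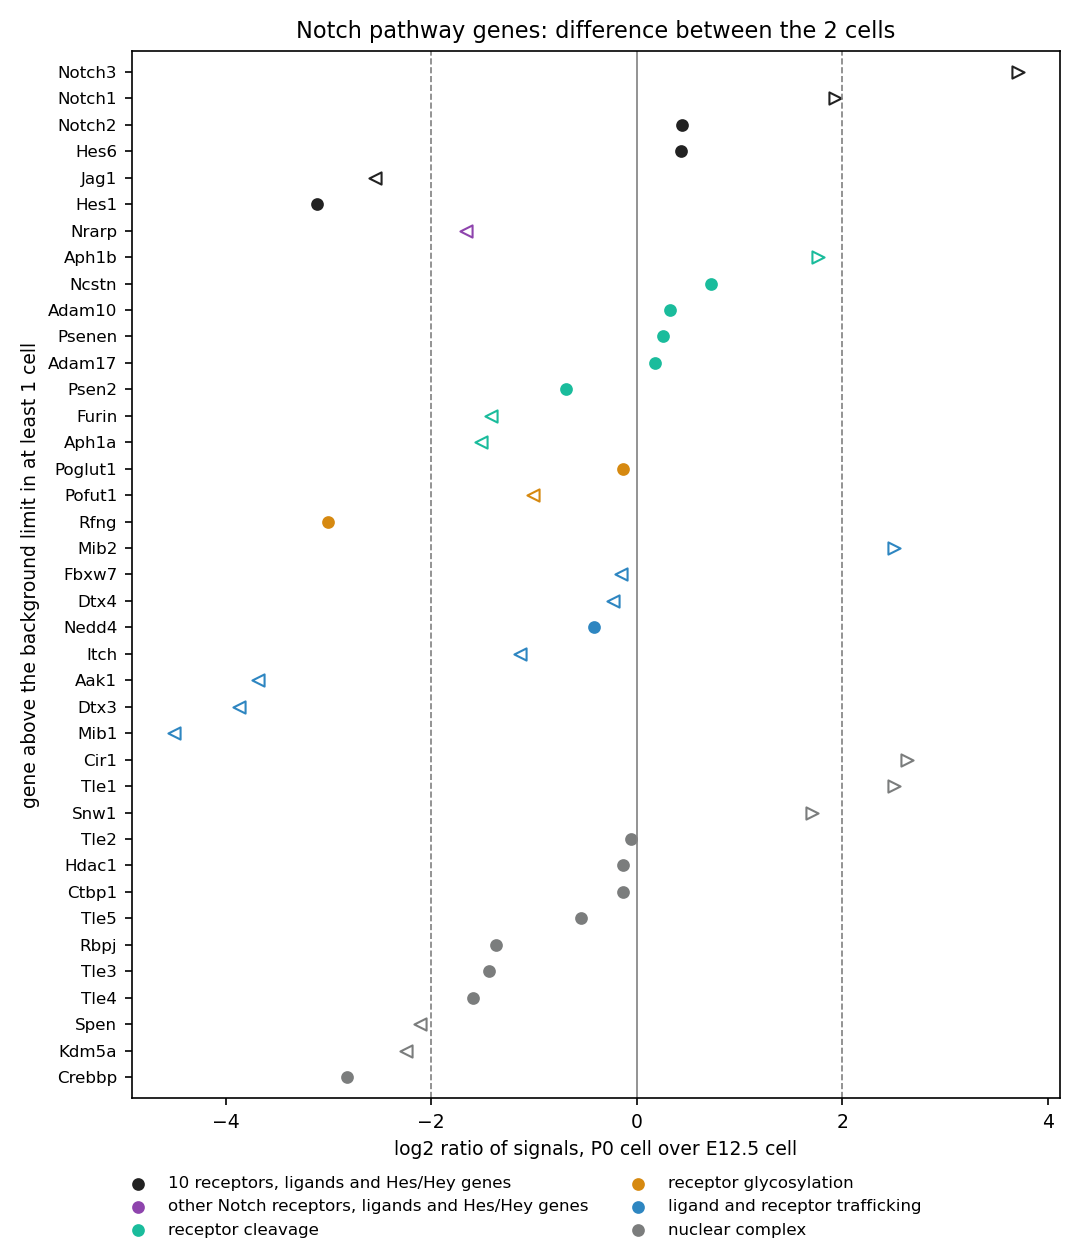
Log2 ratio of signals, P0 cell over E12.5 cell, for the genes of the Notch pathway lists that had a ratio, coloured by list; filled circles are genes above background in both cells, open triangles are lower bounds pointing the way the true ratio may lie further, and the dashed lines mark 4-fold. Receptor cleavage genes lie inside the dashed lines, while Notch3, Mib2, Cir1 and Tle1 lie to the right of them, and Mib1, Dtx3, Aak1, Hes1, Rfng, Crebbp, Jag1, Kdm5a and Spen to the left.

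None of the enzymes that cut the receptor was called. All 8 measured cleavage genes were above background in at least 1 cell, against 7355 of 18194 over all genes. At P0 6 were, at E12.5 7 and in both 5, against 28.6%, 30.8% and 18.9% of all genes. Adam10, the metalloprotease of the first cut, had 11343 at P0 and 9070.2 at E12.5. A further Adam10 probe set, 1450105_at, had 1098 at P0 and 307 at E12.5, 3.58-fold higher. That log2 ratio, 1.84, is larger than the SD of 1.19 between probe sets of a gene. Among the gamma-secretase subunits, Psenen had 8199 at P0 and 6863 at E12.5. The nicastrin gene Ncstn had 2256 at P0 and 1370.0 at E12.5. These subunits thus differed by less than the SD of 1.19 between probe sets of a gene, as did the catalytic subunit gene that follows. The presenilin gene Psen2 had 1262 at P0 and 2029 at E12.5. The alternative subunits Aph1a and Aph1b were each above background in 1 cell. Aph1b had 803 at P0 and 9.52 at E12.5, at least 3.39-fold higher. Aph1a had 300.0 at P0 and 953 at E12.5, at least 2.85-fold lower, and a further probe set gave 4.73 at P0 and 3662 at E12.5, at least 10.97-fold lower. Furin, the convertase that cuts the receptor on its way to the surface, had 288 at P0 and 892 at E12.5, at least 2.67-fold lower. These 3 genes, each above background in 1 cell, were called under other settings. Aph1a was called lower with spike-in scaling, at least 5.22-fold, and without probe sets that may bind related transcripts. Furin was called lower with spike-in scaling, at least 4.89-fold. Aph1b was called higher with either lower limit and with the pseudocount.

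Of 4 ligand-activating ubiquitin ligases, 1 was called lower in the P0 cell and 1 higher, against 7.51% and 9.46% of all genes. Mib1, which ubiquitinates Notch ligands so that they can pull on the receptor, had 124 at P0 and 7577 at E12.5, at least 22.7-fold lower. With either lower limit Mib1 was above it in both cells and was called lower, at 61.0-fold. Its relative Mib2 had 1344 at P0 and 51.3 at E12.5, at least 5.68-fold higher. The other probe sets of Mib1 were below background, and Mib2 has 1 probe set, of the kind that may bind related transcripts. Neurl1a and Neurl1b, other ligases of this function, were below background in both cells with the probe sets that represent them. A further probe set of Neurl1a had 7.71 at P0 and 323 at E12.5, above the limit at E12.5 only.

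Of 10 genes for receptor trafficking and turnover, 1 (10.0%) was above background at P0 and 6 (60.0%) at E12.5, against 28.6% and 30.8% of all genes. With either lower limit the counts were 5 at P0 and 7 at E12.5. Aak1, a kinase of endocytic adaptors, had 102 at P0 and 4295 at E12.5, at least 12.9-fold lower, and a further probe set was also called lower. Dtx3, of the Deltex ubiquitin ligase family, had 146 at P0 and 4888 at E12.5, at least 14.6-fold lower. The ubiquitin ligase gene Nedd4 was above background in both, with 10811 at P0 and 14401 at E12.5. Numb, an inhibitor of Notch that is passed unequally to daughter cells, was below background in both cells, with 80.5 at P0 and 49.6 at E12.5.

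Of the sugar transferases that modify the receptor, Rfng of the Fringe family was called lower, with 358 at P0 and 2869.6 at E12.5, 8.02-fold. Its probe sets went opposite ways, since 1421160_a_at gave 983 at P0 and 177 at E12.5, at least 4.16-fold higher. No direction can be given for Rfng. Poglut1, which adds glucose to the receptor, had 1381 at P0 and 1520.0 at E12.5. Lfng, the Fringe gene that favours Delta over Jagged ligands, was below background in both cells, with 237 at P0 and 83.8 at E12.5.

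In the nucleus, Rbpj was above background in both cells with the probe set that represents it, at 669 at P0 and 1731 at E12.5, 2.59-fold lower and not called. Its further probe sets showed a larger gap. One had 157 at P0 and 2049 at E12.5, at least 6.14-fold lower. The other had 4.65 at P0 and 3304 at E12.5, at least 9.90-fold lower. All 3 probe sets of Rbpj thus had the lower signal in the P0 cell, and with the mean over probe sets Rbpj was called. Maml1 and Maml2, the Mastermind coactivators, were below background in both cells. Crebbp, an acetyltransferase recruited with them, had 1324 at P0 and 9328 at E12.5, 7.05-fold lower.

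All 10 measured corepressor genes were above background in at least 1 cell, against 7355 of 18194 over all genes. Of the 10, 2 were called higher and 2 lower in the P0 cell, against 9.46% and 7.51% of all genes. The Groucho gene Tle1, a partner of Hes proteins, had 1345 at P0 and 12.01 at E12.5, at least 5.69-fold higher, and a second probe set was at least 3.55-fold higher. Cir1, which links Rbpj to histone deacetylases, had 1467 at P0 and 43.3 at E12.5, at least 6.20-fold higher. Tle1, Cir1 and Mib2 missed the 4-fold call with spike-in scaling, at log2 ratios of 1.64, 1.76 and 1.63, while the lower calls below held there. Spen, a corepressor that binds Rbpj, had 39.1 at P0 and 1445 at E12.5, at least 4.33-fold lower. The histone demethylase gene Kdm5a had 13.0 at P0 and 1587 at E12.5, at least 4.75-fold lower, and a second probe set was also called lower. The other 6 differed by less than 4-fold, among them Tle2, with 4379.8 at P0 and 4568 at E12.5, and Hdac1, with 4386 at P0 and 4802 at E12.5. With spike-in scaling Tle3 and Tle4 were called lower too, at 4.97-fold and 5.53-fold.

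Of 12 further receptors, ligands and effectors, 0 were above background at P0 and 2 at E12.5. With either lower limit the counts were 4 at P0 and 5 at E12.5, and 4 of the 5 ligands among them were above it in each cell. Nrarp, a direct Notch target that feeds back on the receptor's intracellular domain, had 6.56 at P0 and 1059.9 at E12.5, at least 3.17-fold lower. Its second probe set had 2.09 at P0 and 889 at E12.5, at least 2.66-fold lower. Dlk2, a non-canonical ligand, had 153 at P0 and 244 at E12.5, the second value just above the limit. Notch4, Jag2, Dll4, Dlk1, Dner, Hes2, Hes3, Hes7, Hey2 and Heyl were below background in both cells. Nrarp passed the limit at E12.5 only, and the ratio of such a gene can only be lower at P0. Its direction therefore adds nothing to that of Hes1, which passed both limits. Hes5, Hey1, Hey2 and Heyl passed neither limit and give no direction. Whether the output of the pathway differed between the cells was not tested. Nrarp did not reach the 4-fold call as reported, and was called lower in 5 of the 8 alternative settings: both lower limits, spike-in scaling, the pseudocount and the 2-fold threshold.

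Of 14 neurogenic genes measured, 1 was above background at P0 and 2 at E12.5. None of the 7 bHLH factors measured, the class that Hes proteins repress, was among them: Atoh7 had 118 at P0 and 94.6 at E12.5, and Neurog2 had 13.3 at P0 and 16.3 at E12.5. With either lower limit, 3 of the 14 genes were above it at P0, 1 of them a bHLH factor, Atoh7. The homeobox gene Dlx2 had 3074 at P0 and 2.37 at E12.5, at least 13.0-fold higher. Mycn, a growth-promoting factor of progenitors, had 6.90 at P0 and 6362 at E12.5, at least 19.1-fold lower, a call it lost with the mean over probe sets. The antiproliferative gene Btg2 was called lower, with 18.3 at P0 and 2791 at E12.5. A second Btg2 probe set went the opposite way, with 5471 at P0 and 6.61 at E12.5, so no direction can be given for it. Both cells had been chosen for scoring in no neuronal class, so low neurogenic signals are not independent of that choice.

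**Figure D3:**
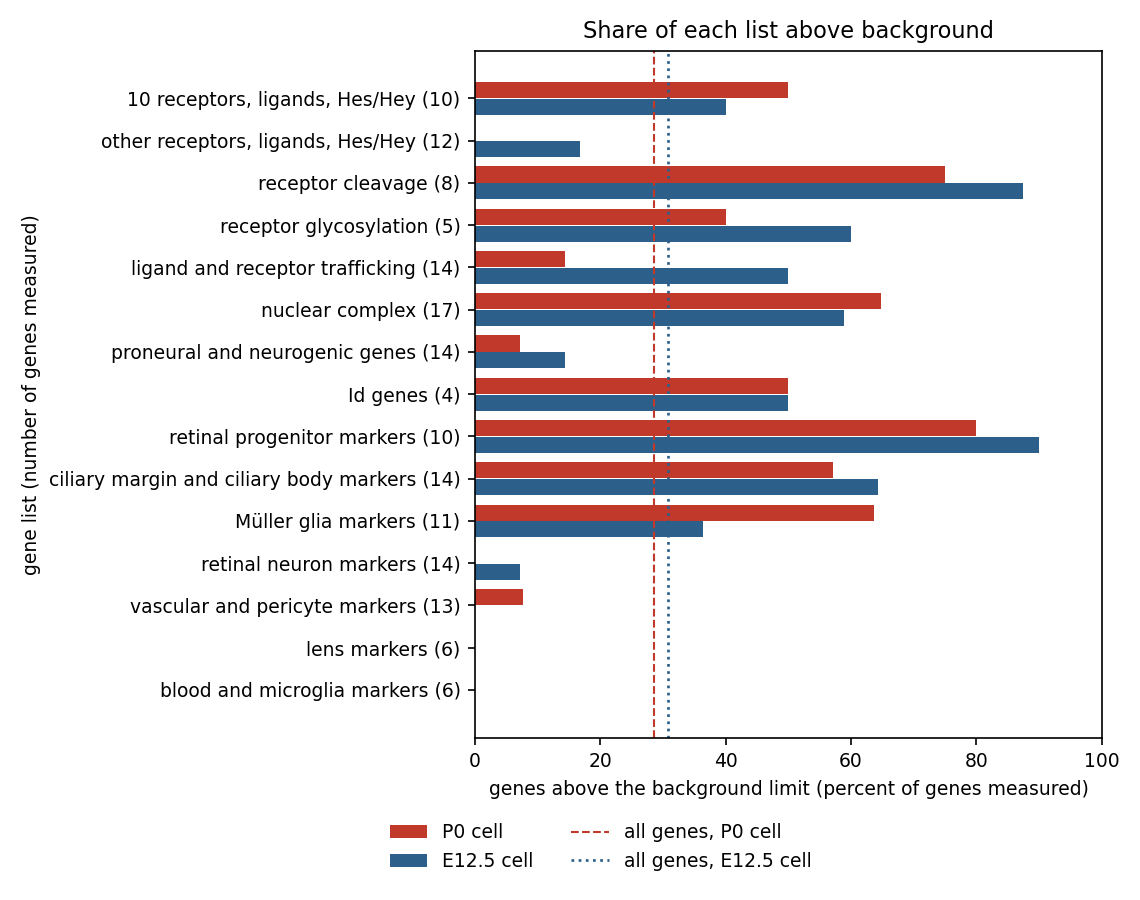
Share of the measured genes of each list (number in brackets) above the background limit in the P0 cell and the E12.5 cell, beside the share of all genes (vertical lines, 28.6% at P0 and 30.8% at E12.5). Receptor cleavage genes, nuclear complex genes and retinal progenitor markers lie above these lines in both cells, while neurogenic, neuronal, vascular, lens and blood genes lie below them.

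Markers of the cell types concerned were counted in the same way. Of all genes, 28.6% were above background at P0 and 30.8% at E12.5, and 9.46% were called higher and 7.51% lower in the P0 cell. Of 14 ciliary margin and ciliary body markers, 8 were above background at P0 and 9 at E12.5, among them Zic1 and Col9a1 in both, with summed signals of 35644 at P0 and 79215 at E12.5. Both cells were placed in the forming ciliary body and iris by their expressed genes, so these counts are not independent of that placement. In the P0 cell, 2 of the 14 markers were called higher, Bmp7 and Optc, and 5 lower, Otx1, Gja1, Mecom, Wfdc1 and Cdon. The lower calls of Wfdc1, at 25.8-fold, and Cdon, at 10.7-fold, were measured above the limit in both cells. With the mean over probe sets Cdon was at least 1.24-fold lower, and Cdon, Gja1, Mecom and Bmp7 lost their calls. Optc lost its call with spike-in scaling, at least 2.89-fold higher, and Wfdc1 has only an _a_at probe set. The median log2 ratio over the 11 ciliary markers with a ratio was -0.98. Of 10 retinal progenitor markers, 8 were above background at P0 and 9 at E12.5, with summed signals of 43106 at P0 and 88810 at E12.5, and 2 were called higher and 4 lower in the P0 cell. Of 11 Müller glia markers, 7 were above background at P0 and 4 at E12.5, with summed signals of 71901 at P0 and 43205 at E12.5. In the P0 cell, 3 were called higher, Rlbp1, Sox9 and Car2, and these 3 calls held with spike-in scaling. With the mean over probe sets Sox9 lost its call, at least 3.66-fold higher, and Glul was called lower, at 5.44-fold. Rlbp1 has only an _a_at probe set, and so no value once such probe sets are left out. The brightest genes weigh most in the summed signals, as Vim did here with 27525 at P0 and 29725 at E12.5. The sums depend on how the arrays are scaled. Spike-in scaling lowers every P0 signal by 0.87 on the log2 scale, more than the gap between the Müller glia sums. Their order would thus reverse, and no direction is given for the Müller glia sum. Of 14 neuronal markers, 0 were above background at P0 and 1 at E12.5, the neuronal tubulin gene Tubb3, with 25.3 at P0 and 3783 at E12.5. A further probe set of Elavl4, an RNA-binding protein of neurons, was also above it at E12.5, with 1.79 at P0 and 1381 at E12.5, at least 4.14-fold lower, while the probe set that represents that gene was not. None of 6 lens markers and none of 6 blood and microglia markers was above background in either cell. The part of these differences in the Notch pathway results was not tested.

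The arrays also differed in technical measures. The signals of the 18 hybridisation spike-in probe sets were higher in the P0 array, by a median of 0.87 on the log2 scale. The ratio of the 3' to the 5' probe set of beta-actin was 2.20 at P0 and 6.17 at E12.5, and that of Gapdh was 1.43 at P0 and 1.06 at E12.5. Priming from the poly(A) tail makes signals depend on how far a probe set lies from the 3' end, and the part of this in the disagreement between probe sets was not tested. Of all genes called, 55.7% were higher at P0, and 33.9% were with spike-in scaling.

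**Figure D4:**
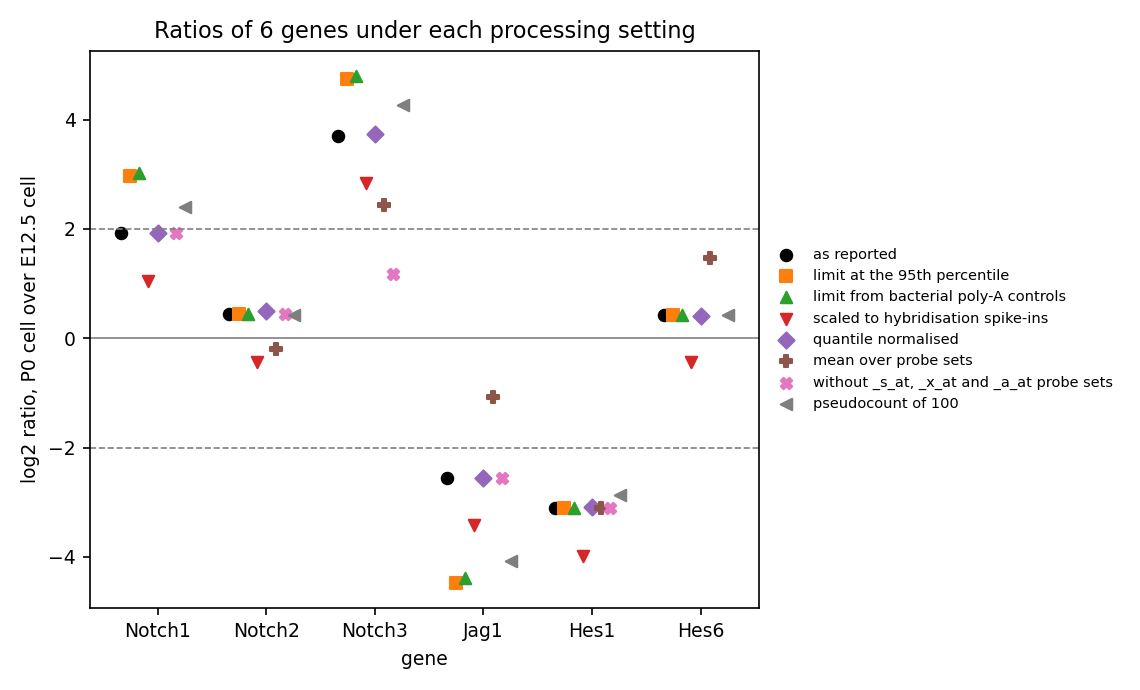
Log2 ratio, P0 cell over E12.5 cell, of the 6 genes above background in at least 1 cell, as reported (black circles) and under 7 alternative settings, with dashed lines at 4-fold; a setting that left a gene without a ratio has no symbol. Hes1 and Notch3 stay on their own side of 0 in all settings shown, Notch3 falls inside the dashed line without probe sets that may bind related transcripts, and Notch2 and Hes6 lie between -0.44 and 0.50 except for Hes6 with the mean over probe sets, at 1.47.

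Between the settings, the sign of the ratio was the same for Notch1, Notch3, Jag1 and Hes1 wherever they had one. Notch2 and Hes6 had small positive ratios that became -0.43 and -0.44 with spike-in scaling. Relative to the median of all genes above background in both cells they were at 0.42 each, before and after that scaling. The scaling moves all log2 ratios alike, so this value could not change. With the mean over probe sets Notch2 was at -0.20 and Hes6 at 1.47. No direction is given for Notch2 or Hes6.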

How the data were processed

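Expression was measured in 2 single cells on Affymetrix mouse arrays. The cDNA was primed with oligo dT and amplified by PCR, per the labels' protocols. Each deposited value is a linear intensity, the MAS5 signal of 1 probe set in 1 cell, per the submitters' processing notes. The MAS5 version is not given in the sources. The mean after leaving out 2% of probe sets at each end was 500.0 in both arrays. Each age is 1 sample, so no test between groups was possible and the number of arrays limits the precision.

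The platform annotation from GEO names 1 gene for 34958 of 45101 probe sets, several for 932 and does not list 9211. Symbols of 34754 were updated by gene identifier from RefSeq (GRCm38.p6). Limits, representation and calls are described in the results, and were computed with Python 3.11.15, numpy 2.4.6 and pandas 2.3.3 and checked on simulated data. Alternatives were the 95th percentile or 27 bacterial poly-A control probe sets for the limit, spike-in scaling, quantile normalisation, the mean over probe sets, leaving out probe sets with _s_at, _x_at or _a_at names, a pseudocount of 100 and a 2-fold threshold. The genes named are the 10 genes with every probe set, and genes of the lists above background in at least 1 cell, called ones first. A few genes below background are also named, chosen after their values were seen. The genes and lists were chosen with earlier results of these data known. No gene was ranked by likeness of pattern, since with 2 cells a pattern is a single ratio.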

Additional observations from a re-analysis of the deposited data

How the results depend on the processing

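No paired analysis was possible because each age is 1 cell and the labels give no pairing. Of the 10 genes, 1 was called higher and 2 lower in the P0 cell. Notch1 joined as a second higher call, making 2, under a limit from the 95th percentile or from bacterial controls, with the pseudocount and with the 2-fold threshold. Without probe sets that may bind related transcripts, 0 were called higher, Notch3 being at a log2 ratio of 1.18. With the mean over probe sets, 1 was called lower, Jag1 being at -1.07. Spike-in scaling and quantile normalisation left these calls as they were. Of the other Notch pathway genes, 21 were above background at P0 and 29 at E12.5, with 3 called higher and 7 lower. With the limit at the 95th percentile, 34 were above it at P0 and 33 at E12.5, 5 were called higher and 12 lower. With that from bacterial controls the counts were 34, 34, 5 and 11, so the larger number at E12.5 held with neither. Over all genes, the share above either lower limit was larger at P0 than at E12.5. With spike-in scaling, 0 were called higher and 14 lower. With the mean over probe sets, 12 were above background at P0 and 17 at E12.5, and 3 were called higher and 3 lower, so the excess of lower calls did not hold there. With the pseudocount 5 were called higher, and with the 2-fold threshold 5 higher and 15 lower. Over all genes, 1721 were called higher and 1366 lower. These counts were 1994 and 2021 with the limit at the 95th percentile, and 2006 and 2004 with that from bacterial controls. They were 1105 and 2159 with spike-in scaling, 891 and 715 with the mean over probe sets, and 2500 and 2307 with the 2-fold threshold. Bright genes changed call too: Mib1, Aak1, Crebbp and Kdm5a lost theirs with the mean over probe sets. Hes6 was at a log2 ratio of 1.47 with that mean, against 0.43 as reported. Apart from the constructions named, the cause was not tested.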

Other observations

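The Id genes, which encode helix-loop-helix proteins without a DNA-binding region that hold back bHLH factors, were measured in both cells in a different mix. Id1 had a signal of 4748 at P0 and 133 at E12.5, at least 20.1-fold higher. Its only probe set has an _a_at name, so Id1 has no value once probe sets with _s_at, _x_at or _a_at names are left out. Id3 had 4818 at P0 and 18550.3 at E12.5, 3.85-fold lower, which missed the 4-fold call and passed it with spike-in scaling. Id2 had 21.8 at P0 and 253 at E12.5, just above the limit there, and Id4 was below background in both cells, with 119 at P0 and 30.9 at E12.5.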
